A study of Mus musculus with 6 samples.

Results

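The mitochondrial carrier family Slc25 was described in primary mouse hepatocytes kept under normoxia or hypoxia. Its members were the rows of the deposited expression table with a single gene symbol of the form *Slc25a* and a number, taken without *Slc25a15* and *Slc25a20*, and they came to 33 genes with 1 row each, of 13725 named genes on 15443 rows. The carrier lists by substrate hold 46 genes, and 13 of these had no row that met this choice. Hepatocytes were isolated by collagenase perfusion from 3 wildtype C57BL/6 mice (C57BL/6N according to the methods) aged 8 to 12 weeks. The cells of each mouse were plated on collagen and cultured at 19.5% O2 (normoxia) and at 1% O2 (hypoxia) for 72 h before lysis according to the sample labels, whereas the text of the study gives a shorter exposure for the arrays and a slightly different normoxic oxygen level. The values do not settle the time. All cultures received the same medium, no gene was altered in either group, and each mouse gave 1 array per condition, so that 6 Affymetrix Mouse Gene 2.0 ST arrays were compared.

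Carriers of the Slc25 family are small proteins of 3 repeated modules that sit mostly in the inner mitochondrial membrane and exchange nucleotides, phosphate, carboxylates, amino acids and cofactors between the cytosol and the matrix. They are encoded in the nucleus, are made in the cytosol without a cleaved targeting signal in most cases, and are inserted by the TIM22 machinery. In hepatocytes they connect mitochondrial respiration with the urea cycle, gluconeogenesis and the export of citrate for fatty acid synthesis. Oxygen shortage stabilizes hypoxia-inducible factors, which bind DNA at the core letters ACGTG or GCGTG.

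Promoter sequences from RefSeq (GRCm38.p6) are shown for 4 of the called carriers, which do not include *Slc25a48*, the member with the largest rise. *Slc25a1* and *Slc25a5* are members that rose, and *Slc25a30* and *Slc25a4* are members that fell, with *Slc25a4* and *Slc25a5* being the closely related ADP/ATP carriers. Each window holds the 250 bases before the annotated start, written 5′ to 3′ on the strand of the gene, and capitals mark ACGTG or GCGTG on either strand (CACGT and CACGC when read on the other). The letters CACGTG count as a match on each strand. The windows lie at chr16:17928220-17928469 on the minus strand for *Slc25a1*, chrX:36795347-36795596 on the plus strand for *Slc25a5*, chr14:75787038-75787287 on the minus strand for *Slc25a30* and chr8:46211063-46211312 on the minus strand for *Slc25a4*.
Slc25a1: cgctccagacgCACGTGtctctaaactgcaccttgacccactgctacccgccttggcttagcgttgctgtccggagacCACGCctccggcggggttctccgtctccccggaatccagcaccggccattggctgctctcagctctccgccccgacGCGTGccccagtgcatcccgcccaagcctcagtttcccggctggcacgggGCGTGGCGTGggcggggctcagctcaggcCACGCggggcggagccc
Slc25a5: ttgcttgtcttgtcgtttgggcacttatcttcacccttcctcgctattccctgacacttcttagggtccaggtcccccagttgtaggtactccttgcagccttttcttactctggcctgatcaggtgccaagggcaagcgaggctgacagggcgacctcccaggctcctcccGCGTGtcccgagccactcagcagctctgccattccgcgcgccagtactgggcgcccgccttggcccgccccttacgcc
Slc25a30: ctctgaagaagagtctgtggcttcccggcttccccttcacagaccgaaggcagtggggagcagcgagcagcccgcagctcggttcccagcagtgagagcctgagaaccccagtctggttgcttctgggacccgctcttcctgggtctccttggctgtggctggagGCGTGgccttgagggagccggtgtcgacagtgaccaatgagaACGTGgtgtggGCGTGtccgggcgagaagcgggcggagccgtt
Slc25a4: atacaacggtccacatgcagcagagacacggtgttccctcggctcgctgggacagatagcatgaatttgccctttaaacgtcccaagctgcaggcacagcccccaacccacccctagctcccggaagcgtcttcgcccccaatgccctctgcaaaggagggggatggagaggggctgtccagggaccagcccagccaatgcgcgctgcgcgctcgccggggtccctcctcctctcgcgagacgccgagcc

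The *Slc25a1* window held 7 matches, the *Slc25a30* window 3, the *Slc25a5* window 1 and the *Slc25a4* window 0. Of all 32851 RefSeq promoter windows of this length, 38.6% held at least 1 match, 6.58% held 3 or more and 0.183% held 7 or more. RefSeq windows were matched by symbol for 27 of the 33 carriers (35 windows, since some genes have several starts), and 19 of the 35 (54.3%) held a match. Windows of 1 gene can overlap, as in *Slc25a23* and *Slc25a14*, so that the same site can count in more than 1 window. By expression, 3 of 7 windows of carriers called higher held a match, against 5 of 10 of carriers called lower and 11 of 18 of carriers not called. Among risers not shown, the window of *Slc25a48*, the member with the largest rise, and each window of *Slc25a25* held 0 matches. The window of *Slc25a3* held 3. A match is a description of the letters, and the absence of one says only that they are not in this window.

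Across the family, 6 carriers were called higher under hypoxia and 9 were called lower, and 18 were not called. Genes were called at an adjusted p under 0.05 (limma without a term for the mouse, Benjamini-Hochberg over all 15443 rows). The called carriers make up 18.2% (higher) and 27.3% (lower) of the family, beside 15.5% and 23.9% of all rows, so that these shares lie near the background and are not a result about the family. The median log2 fold change was -0.13 over the 33 carriers and -0.05 over all rows. The quartiles were -0.56 and 0.18 for the carriers and -0.51 and 0.39 for all rows. In the 15 called carriers, the 3 hypoxic arrays did not overlap the 3 normoxic arrays, and all 3 mice moved in the same direction. A call from 3 arrays against 3 favors both, so neither adds to the calls. The share of all rows without overlap was not counted, and the uncalled *Slc25a24*, *Slc25a38* and *Slc25a44* did not overlap either. Values below are RMA expression on the log2 scale, levels are comparable between arrays for a gene and not between genes, and the 6 arrays limit the precision. In such bulk RNA, fewer cells of a type and less RNA per cell cannot be told apart.

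**Figure D1:**
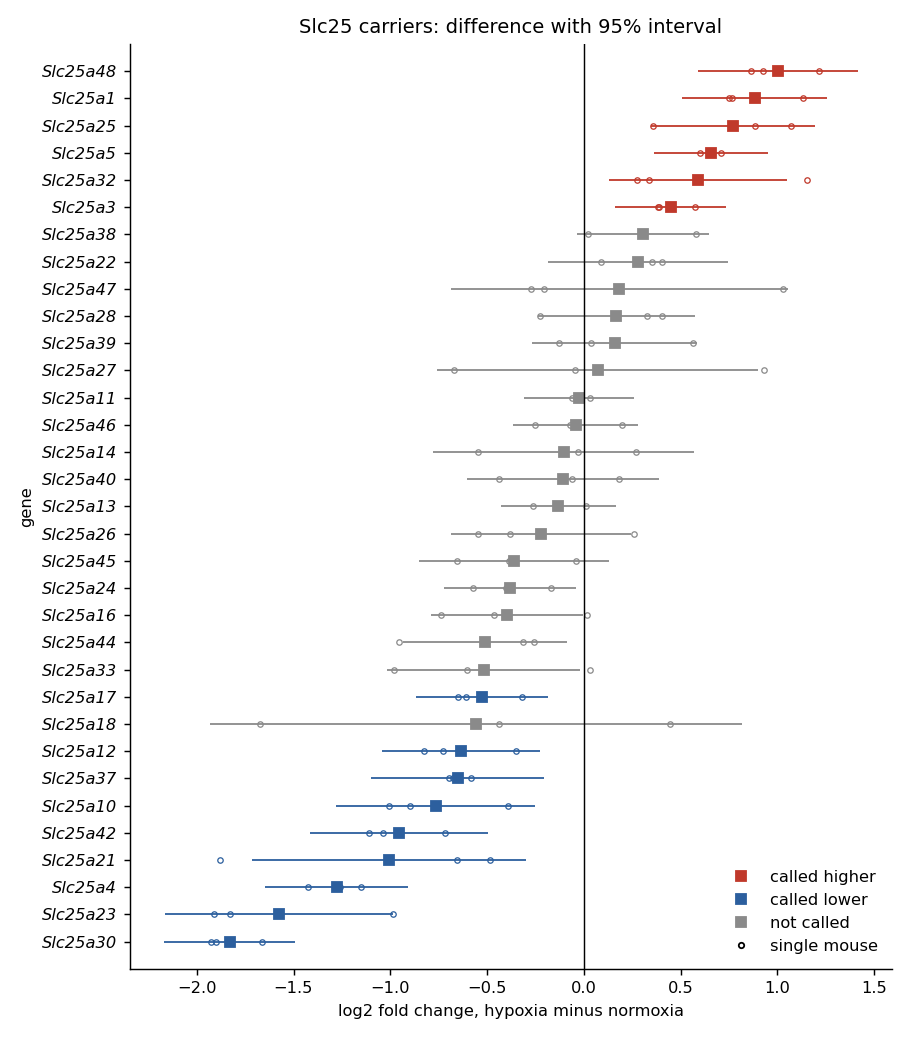
Log2 fold change (hypoxia minus normoxia, x axis) of each of the 33 Slc25 carriers (y axis), with squares for the limma estimate, bars for its 95% interval and open circles for the 3 mice. The 6 carriers called higher reach 1.00 for *Slc25a48*, the 9 called lower reach -1.83 for *Slc25a30*, and the 18 grey carriers were not called.

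With the mouse as a block, which pairs the arrays of an animal, 4 carriers were called higher and 7 lower, beside 13.3% and 20.1% of all rows. All 11 were also called without the block, and *Slc25a3*, *Slc25a32*, *Slc25a17* and *Slc25a21* lost their call. Leaving out all arrays of mouse 2 left 0 carriers called higher and 4 lower (5.52% and 8.46% of all rows by limma), although 6 rose and 5 fell at an unadjusted p under 0.05. Leaving out mouse 3 left 3 and 3 (7.73% and 11.2%), and leaving out mouse 1 left 3 and 10 (15.4% and 21.2%). Among fits without a single array, a count fell by 1.5 times or more without the normoxic array of mouse 1 (4 higher and 5 lower, beside 9.98% and 16.5%), mouse 2 (3 and 4, beside 9.98% and 15.4%) or mouse 3 (4 and 6, beside 11.3% and 17.0%). The same held without the hypoxic array of mouse 2 (6 and 5, beside 11.9% and 20.0%) or mouse 3 (4 and 4, beside 12.6% and 19.4%). Without the hypoxic array of mouse 1, 5 were called higher and 12 lower, beside 3114 and 4131 of all 15443 rows. No called carrier turned its direction in any of the 17 alternatives. Only repeated quantile normalization and centring on the brighter rows, which change the values, could have turned it. In the other fits the separate groups fixed the direction in advance. *Slc25a4*, *Slc25a30* and *Slc25a42* were called in every alternative that tested them.

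**Figure D2:**
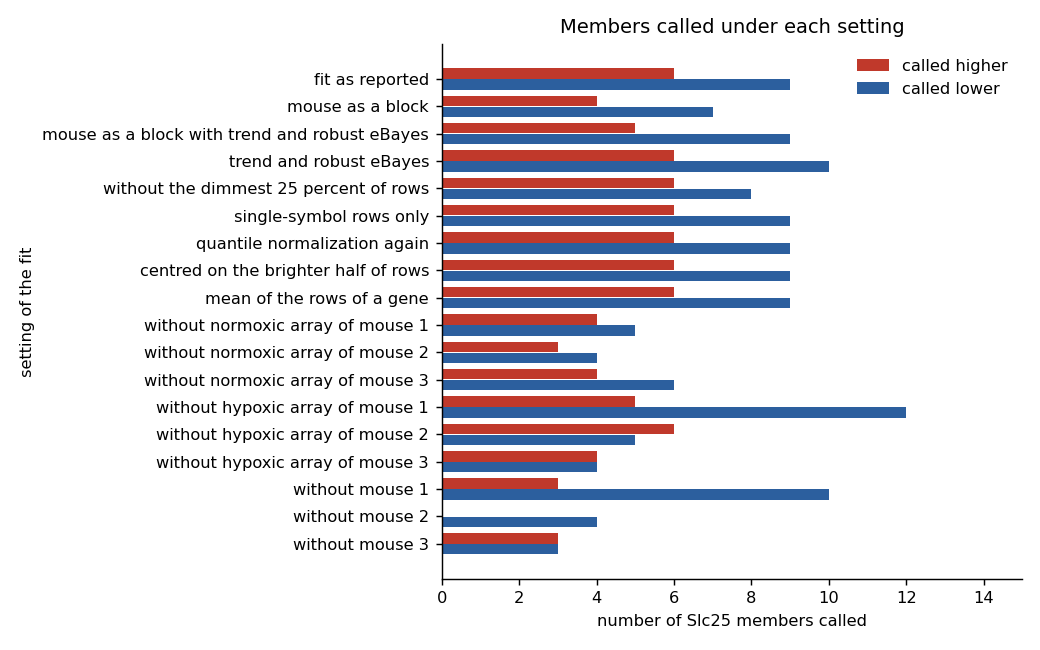
Number of the 33 Slc25 carriers called higher (red) and lower (blue) under hypoxia (x axis) in the reported fit and in each of 17 alternatives (y axis). The reported fit has 6 and 9, the fit with the mouse as a block 4 and 7, and the fit without mouse 2 has 0 and 4.

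The ADP/ATP and phosphate carriers, which supply ATP synthesis with its substrates and export its product, moved in opposite directions. *Slc25a4*, the ADP/ATP carrier that prevails in heart and muscle, fell in all 3 mice. Its log2 level was 9.79, 10.06 and 9.84 in the normoxic arrays of mouse 1, 2 and 3 and 8.64, 8.81 and 8.41 in their hypoxic arrays, and the groups did not overlap. The log2 fold change was -1.28 (standard error 0.16, 95% interval -1.65 to -0.91, limma adjusted p = 0.00156), a normoxic level 2.42 times the hypoxic level. *Slc25a5*, the ADP/ATP carrier of most proliferating and epithelial cells, rose from 10.50, 10.64 and 10.54 to 11.20, 11.29 and 11.14. A log2 fold change of 0.66 (standard error 0.13, limma adjusted p = 0.00679) resulted, and the call was lost without mouse 2 (adjusted p = 0.0728) or mouse 3 (adjusted p = 0.0504). *Slc25a3*, the phosphate carrier, read 10.16, 10.11 and 10.03 under normoxia and 10.54, 10.49 and 10.60 under hypoxia, so that the lowest hypoxic array lay above the highest normoxic array. Its rise of 0.45 (standard error 0.12, limma adjusted p = 0.0250) was not called once the mouse was a block (adjusted p = 0.0647). It was also lost without each normoxic array, the hypoxic array of mouse 3 or any mouse (adjusted p from 0.0584 to 0.148). The *Slc25a5* row may share probes with near-identical pseudogene copies, which was not tested.

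The ratio of the ADP/ATP carriers within an array, *Slc25a5* over *Slc25a4*, shifted by 1.86, 1.92 and 2.02 on the log2 scale from normoxia to hypoxia in mouse 1, 2 and 3 (1.93 ± 0.08, SD, n = 3 mice). This was the most even shift among the 7 carrier pairs compared. *Slc25a3* over *Slc25a4* shifted by 1.53, 1.65 and 2.00 (1.73 ± 0.24). Such ratio changes are given as descriptions without a test, since they follow from the levels above. In every pair the carrier with the higher log2 fold change was put on top, so that a mean rise was fixed by this choice.

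The calcium-regulated ATP-Mg/phosphate carriers, which adjust the adenine nucleotide content of the matrix, also moved apart. *Slc25a23* fell from 9.38, 9.32 and 9.60 to 8.39, 7.42 and 7.77, and its hypoxic arrays spread more widely than its normoxic arrays (SD 0.50 and 0.14) without reaching them. Hypoxic and normoxic means differed by a log2 fold change of -1.58 (standard error 0.25, limma adjusted p = 0.00347), a normoxic level 2.98 times the hypoxic level, and the call was lost without mouse 3 (adjusted p = 0.0518). *Slc25a25* rose from 6.99, 6.85 and 7.11 to 8.06, 7.74 and 7.47. The rise was largest in mouse 1 (1.07) and smallest in mouse 3 (0.36), and the log2 fold change was 0.77 (standard error 0.18, limma adjusted p = 0.0142). The call did not hold when the normoxic array of mouse 2, all of mouse 1 or all of mouse 2 was left out (adjusted p from 0.0533 to 0.119). The remaining member, *Slc25a24*, read 10.20, 10.16 and 10.17 under normoxia and 9.80, 9.99 and 9.60 under hypoxia, and these groups did not overlap. Its fold change of -0.38 on the log2 scale (standard error 0.14) was not called (limma adjusted p = 0.0726), although it passed with trend and robust eBayes, with or without the block, and after quantile normalization was repeated. Within an array, *Slc25a25* over *Slc25a23* shifted by 2.06, 2.79 and 2.19 in mouse 1, 2 and 3 (2.35 ± 0.39, SD, n = 3 mice), and *Slc25a24* over *Slc25a23* by 0.59, 1.74 and 1.26 (1.19 ± 0.58).

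**Figure D3:**
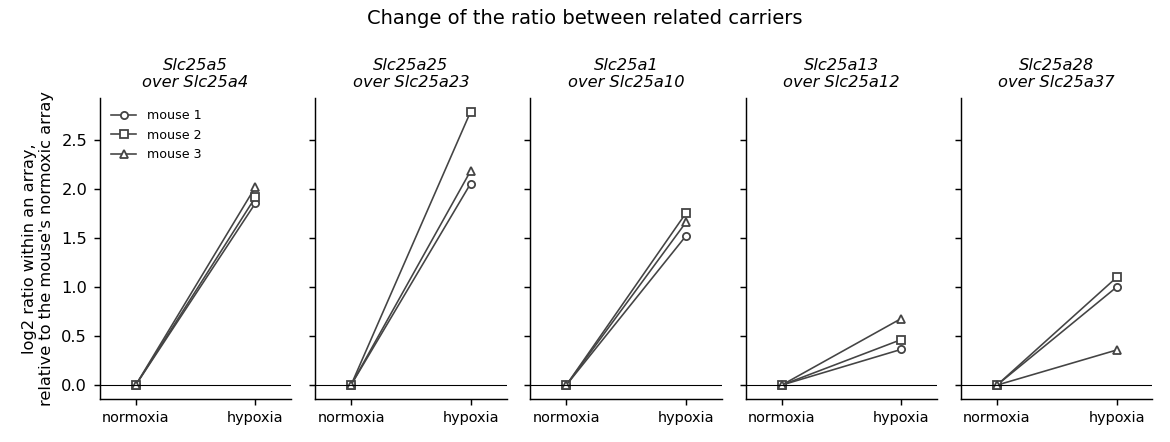
Log2 ratio of a carrier over its relative within an array, set to 0 in the normoxic array of each mouse (y axis), under normoxia and hypoxia (x axis), with a line for each of the 3 mice. In each panel the carrier with the higher log2 fold change is on top, so that a mean rise follows from this choice. The rise was seen in all 3 mice, by 1.93 on average for *Slc25a5* over *Slc25a4* and by 0.50 for *Slc25a13* over *Slc25a12*.

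Among the carriers related to uncoupling proteins, *Slc25a30*, a carrier first described in kidney mitochondria that can exchange inorganic sulfur anions, had the largest fall of the 33 members. It read 11.44, 11.36 and 11.35 under normoxia and 9.77, 9.43 and 9.46 under hypoxia, so that the conditions lay more than 1.5 apart on the log2 scale while the arrays of a condition lay close together. The log2 fold change was -1.83 (standard error 0.14, 95% interval -2.17 to -1.49, limma adjusted p = 0.000473), and normoxic expression was 3.55 times hypoxic expression. Its relatives, both best known from brain, were not called and their groups overlapped. *Slc25a14* read 6.10, 6.17 and 6.59 under normoxia and 5.55, 6.44 and 6.56 under hypoxia (log2 fold change -0.10, 95% interval -0.78 to 0.57). *Slc25a27* read 6.90, 6.71 and 6.53 under normoxia and 6.23, 7.65 and 6.49 under hypoxia (0.07, 95% interval -0.76 to 0.90). The hypoxic array of mouse 2 stood above the other arrays in *Slc25a27*, and both genes lie among the dimmest 25% of rows.

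The di- and tricarboxylate carriers were called in both directions. *Slc25a1*, the citrate carrier that exports citrate for cytosolic acetyl-CoA, rose from 9.40, 9.75 and 9.87 to 10.53, 10.50 and 10.63. The hypoxic arrays lay within a narrower range than the normoxic arrays (SD 0.07 and 0.24), and the log2 fold change was 0.88 (standard error 0.16, limma adjusted p = 0.00548), or 1.84 times the normoxic level. The call was lost without mouse 2 (adjusted p = 0.0552). *Slc25a10*, which exchanges malate or succinate for phosphate, fell from 8.59, 8.91 and 8.40 to 8.20, 7.90 and 7.50. The mice fell unequally (-0.39, -1.01 and -0.90), and the log2 fold change was -0.77 (standard error 0.22, limma adjusted p = 0.0291). The call did not hold when the normoxic array of mouse 1 or 2, the hypoxic array of mouse 2 or 3, all of mouse 2 or all of mouse 3 was left out (adjusted p from 0.0639 to 0.175). *Slc25a21*, which carries oxoadipate from lysine and tryptophan breakdown into the matrix, read 6.06, 6.56 and 6.71 under normoxia and 5.57, 5.90 and 4.82 under hypoxia. Mouse 3 fell by far the most (-1.88 against -0.48 and -0.66), and the row is among the dimmest 25%. Its log2 fold change of -1.01 (standard error 0.30, limma adjusted p = 0.0345) was not called once the mouse was a block (adjusted p = 0.0582). Nor did the call hold when the normoxic array of mouse 2 or 3, the hypoxic array of mouse 3, all of mouse 2 or all of mouse 3 was left out (adjusted p from 0.0675 to 0.169). *Slc25a21* further lost its call with trend and robust eBayes (adjusted p = 0.0635), with these and the block (0.0872) and after repeated quantile normalization (0.0521).

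*Slc25a11*, the oxoglutarate/malate carrier of the malate-aspartate shuttle, read 8.64, 8.67 and 8.61 under normoxia and 8.60, 8.70 and 8.55 under hypoxia, and the groups overlapped. The log2 fold change was -0.03 with a 95% interval from -0.31 to 0.26 (limma adjusted p = 0.886). All 6 arrays lay between 8.55 and 8.70. Within an array, *Slc25a1* over *Slc25a10* shifted by 1.52, 1.76 and 1.66 in mouse 1, 2 and 3 (1.65 ± 0.12, SD, n = 3 mice).

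**Figure D4:**
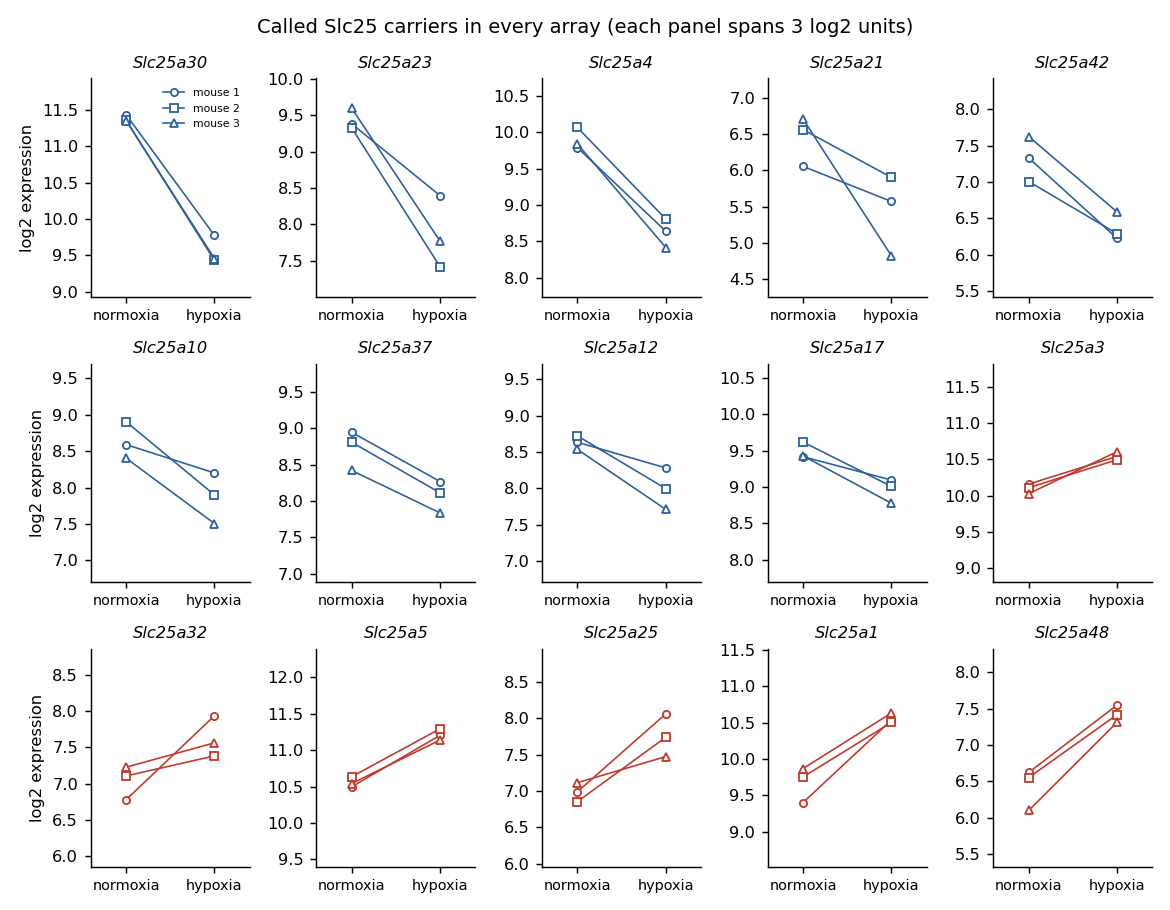
Log2 expression (y axis, each panel spanning 3 log2 units) of the 15 called Slc25 carriers in the normoxic and hypoxic arrays (x axis), with lines joining the arrays of a mouse. Blue panels fell and red panels rose in all 3 mice, from -1.83 for *Slc25a30* to 1.00 for *Slc25a48*, and no panel overlaps between conditions.

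Of the 6 amino acid carriers measured, 1 was called lower by limma, 0 were called higher and 5 were not called (2 lower and 0 higher at an unadjusted p under 0.05). Of all rows, 23.9% were called lower and 15.5% higher, so that these few calls are not a result about the group. *Slc25a12*, an aspartate/glutamate carrier of the malate-aspartate shuttle that prevails in brain and muscle, fell from 8.63, 8.72 and 8.53 to 8.28, 7.99 and 7.71. Its mean changed by -0.63 on the log2 scale (standard error 0.17, limma adjusted p = 0.0251), and the call was lost without each normoxic array, the hypoxic array of mouse 2 or 3, mouse 2 or mouse 3 (adjusted p from 0.0562 to 0.167). *Slc25a13*, or citrin, the main aspartate/glutamate carrier of liver, read 8.31, 8.45 and 8.34 under normoxia and 8.32, 8.19 and 8.19 under hypoxia. These groups overlapped, and the log2 fold change was -0.13 (95% interval -0.43 to 0.16, limma adjusted p = 0.438). *Slc25a13* over *Slc25a12* within an array shifted by 0.37, 0.47 and 0.68 (0.50 ± 0.16, SD, n = 3 mice).

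The glutamate carriers were not called. *Slc25a22* read 7.94, 7.74 and 7.58 under normoxia and 8.29, 8.14 and 7.67 under hypoxia (log2 fold change 0.28, limma adjusted p = 0.291), with overlapping groups. *Slc25a18* read 6.50, 6.79 and 7.25 under normoxia and 4.83, 7.24 and 6.81 under hypoxia. The hypoxic array of mouse 1 lay far below the other arrays, and the 95% interval from -1.93 to 0.82 around a log2 fold change of -0.56 was the widest among the carriers. *Slc25a38*, the glycine carrier that feeds heme synthesis, read 7.04, 7.36 and 7.19 under normoxia and 7.62, 7.38 and 7.50 under hypoxia (0.30, limma adjusted p = 0.134). Its groups did not overlap, by a margin of 0.02 between the arrays of mouse 2. *Slc25a44*, the carrier of branched-chain amino acids, read 8.17, 8.07 and 8.29 under normoxia and 7.91, 7.76 and 7.33 under hypoxia, without overlap. This difference of -0.51 on the log2 scale (standard error 0.18) was not called (limma adjusted p = 0.0586), although it passed with trend and robust eBayes, without the dimmest rows and when the hypoxic array of mouse 1 was left out (adjusted p = 0.0433, 0.0432 and 0.0259).

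The 7 cofactor carriers held 1 call in the higher (14.3%) and 2 in the lower direction (28.6%), near the 15.5% and 23.9% of all rows. *Slc25a42*, which brings coenzyme A into the matrix, fell from 7.33, 7.01 and 7.62 to 6.22, 6.29 and 6.59, and the groups did not overlap. A log2 fold change of -0.95 (standard error 0.20, limma adjusted p = 0.00878) was found, a normoxic level 1.94 times the hypoxic level, and the row is among the dimmest 25% of rows. *Slc25a17*, a member located in peroxisomes that carries coenzyme A and flavin and nicotinamide nucleotides, fell from 9.42, 9.62 and 9.43 to 9.10, 9.01 and 8.78. This fall, a log2 fold change of -0.53 (standard error 0.15, limma adjusted p = 0.0255), was not called once the mouse was a block (adjusted p = 0.0506). It was also lost without each normoxic array, the hypoxic array of mouse 2 or 3, mouse 2 or mouse 3 (adjusted p from 0.0521 to 0.165). *Slc25a32*, the folate and flavin carrier, read 6.78, 7.11 and 7.23 under normoxia and 7.94, 7.38 and 7.56 under hypoxia, and the rise in mouse 1 (1.16) was larger than in mouse 2 (0.28) or mouse 3 (0.34). Its log2 fold change of 0.59 (standard error 0.20, limma adjusted p = 0.0478) was not called once the mouse was a block (adjusted p = 0.0982, and 0.0715 with trend and robust eBayes added). Without an array or a mouse it was called only when the hypoxic array of mouse 2 was left out, and the other 8 fits gave adjusted p from 0.0668 to 0.197.

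The glutathione carriers were not called. *Slc25a39* read 11.31, 10.86 and 11.48 under normoxia and 11.35, 11.42 and 11.36 under hypoxia (log2 fold change 0.16, 95% interval -0.27 to 0.59). *Slc25a40* read 6.96, 7.14 and 7.02 under normoxia and 6.52, 7.32 and 6.96 under hypoxia (-0.11, 95% interval -0.60 to 0.39). Both had overlapping groups, as had *Slc25a16*, a member linked to coenzyme A supply. *Slc25a16* read 8.14, 8.41 and 8.46 under normoxia and 8.16, 7.94 and 7.72 under hypoxia, and its log2 fold change of -0.40 (limma adjusted p = 0.0977) passed without the hypoxic array of mouse 1 or without mouse 1. *Slc25a26*, the S-adenosylmethionine carrier, read 6.78, 6.61 and 6.69 under normoxia and 6.40, 6.87 and 6.15 under hypoxia (-0.22, limma adjusted p = 0.404). Its groups overlapped through the hypoxic array of mouse 2. *Slc25a51*, the NAD carrier, stands on the platform under an older symbol and so is no member by the rule above. It read 7.64, 7.87 and 7.95 under normoxia and 7.16, 7.23 and 7.04 under hypoxia (log2 fold change -0.68, standard error 0.14, limma adjusted p = 0.00952), and the call was lost without mouse 2 or mouse 3 (adjusted p from 0.0823 to 0.0847).

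Of the iron carriers, or mitoferrins, *Slc25a37*, the mitoferrin of developing red cells, fell from 8.95, 8.81 and 8.42 to 8.27, 8.11 and 7.84. The mice moved evenly (-0.68, -0.70 and -0.58), and the log2 fold change was -0.65 (standard error 0.19, limma adjusted p = 0.0311). The call did not hold when the normoxic array of mouse 1 or 2, the hypoxic array of mouse 2 or 3 or any mouse was left out (adjusted p from 0.0529 to 0.172). *Slc25a28*, the mitoferrin of other tissues, read 7.25, 7.10 and 7.28 under normoxia and 7.57, 7.50 and 7.05 under hypoxia. Its groups overlapped through mouse 3, and its log2 fold change was 0.17 (95% interval -0.24 to 0.57, limma adjusted p = 0.470). *Slc25a28* over *Slc25a37* within an array shifted by 1.00, 1.10 and 0.36 (0.82 ± 0.40, SD, n = 3 mice). *Slc25a33*, a pyrimidine nucleotide carrier, read 7.58, 7.64 and 7.87 under normoxia and 7.61, 7.03 and 6.89 under hypoxia. A log2 fold change of -0.52 (limma adjusted p = 0.0903) passed only without the hypoxic array of mouse 1 or without mouse 1, in which it did not fall.

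The largest rise of the 33 members belonged to *Slc25a48*, which has been described as a carrier of choline into mitochondria. It read 6.62, 6.55 and 6.10 under normoxia and 7.55, 7.42 and 7.31 under hypoxia, without overlap and with rises of 0.93, 0.87 and 1.21 in mouse 1, 2 and 3. The log2 fold change was 1.00 (standard error 0.18, limma adjusted p = 0.00496), a hypoxic level 2.00 times the normoxic level, and the call was lost without mouse 2 (adjusted p = 0.0510). Its normoxic values lay below the 25th percentile of their arrays (6.88, 6.86 and 6.88 in mouse 1, 2 and 3), so the rise starts from a dim level. *Slc25a47*, a member enriched in liver, read 7.63, 7.62 and 8.53 under normoxia and 8.66, 7.42 and 8.26 under hypoxia. Mouse 1 rose by 1.03 while mouse 2 and mouse 3 moved by -0.20 and -0.27, and the log2 fold change was 0.18 (95% interval -0.69 to 1.05). *Slc25a46*, which sits in the outer membrane and takes part in mitochondrial dynamics, read 9.09, 9.30 and 9.28 under normoxia and 9.29, 9.05 and 9.21 under hypoxia (-0.04, 95% interval -0.37 to 0.28). *Slc25a45*, whose substrate is less well settled, read 6.71, 6.96 and 7.24 under normoxia and 6.32, 6.92 and 6.59 under hypoxia (-0.36, limma adjusted p = 0.208). The groups of these 3 uncalled members overlapped.

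Genes that work with the carriers were described from 5 lists. Their counts stand beside 15.5% of all rows called higher and 23.9% called lower (13.3% and 20.1% with the mouse as a block). Per list, 0% to 33.3% were called higher and 0% to 33.3% lower, and a difference from all rows was not tested. Of 12 measured genes of the import machinery, which receives carriers at the outer membrane and inserts them into the inner membrane, 4 rose and 3 fell (median log2 fold change 0.30), and 3 and 2 were called with the mouse as a block. *Tomm20*, a receptor of the outer membrane, rose by 0.96 (standard error 0.12, limma adjusted p = 0.00172), and *Timm13*, a chaperone of the intermembrane space, by 0.77 (standard error 0.12, limma adjusted p = 0.00335). *Timm29*, a subunit of the TIM22 complex, fell (log2 fold change -0.92, standard error 0.13, limma adjusted p = 0.00256). *Tomm20*, *Timm13* and *Timm29* were called in all 9 fits that left out an array or a mouse. The other risers were *Tomm22* (0.67) and *Timm10b* (0.41), and *Timm22* (-0.48) and *Agk* (-0.89) also fell. Of these, *Tomm22*, *Timm22* and *Agk* lost their call in 6 of the 9 fits and *Timm10b* in all 9. With the mouse as a block, *Timm10b* and *Timm22* were not called. Among the 5 uncalled genes were *Tomm70a* (0.25), *Timm9* (0.09) and *Timm10* (0.35). The counts of the list were less stable, at 2 higher and 1 lower without the normoxic array of mouse 1 or 3 or without mouse 3, and at 3 and 1 without the normoxic array of mouse 2 or without mouse 1. They were 2 and 3 without the hypoxic array of mouse 2, and 2 and 2 without that of mouse 3 or without mouse 2.

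Of 13 other transporters of the inner membrane, 3 rose and 4 fell (median -0.22), and with the mouse as a block 0 rose and 3 fell (3 and 5 at an unadjusted p under 0.05 in limma). Over all rows, 15.5% were called higher and 23.9% lower (13.3% and 20.1% with the block). The fallen genes called in both fits were *Slc8b1*, a sodium/calcium exchanger (log2 fold change -1.28, limma adjusted p = 0.00175), *Sfxn1*, a serine transporter (-0.85, limma adjusted p = 0.00431), and its relative *Sfxn2* (-0.66, limma adjusted p = 0.00938). Of these, *Sfxn2* lost its call without mouse 2 or mouse 3 (adjusted p from 0.0677 to 0.0774). The number that rose was 1 without the hypoxic array of mouse 1 and 0 in the other 8 fits without an array or a mouse, and the number that fell was 2 without mouse 2 or mouse 3. The share of all rows called changed between these fits as well, as given above. Of 9 enzymes of the malate-aspartate and glycerol phosphate shuttles and of citrate export, 2 rose and 0 fell in limma (median 0.13), with the same counts at an unadjusted p under 0.05. They were *Got1*, the cytosolic aspartate aminotransferase (log2 fold change 0.59, limma adjusted p = 0.0174), and *Mdh2*, the mitochondrial malate dehydrogenase (0.53, limma adjusted p = 0.0290). Neither was called without the normoxic array of mouse 1 or without any mouse, and 1 of them was called without any other array. Over the fits that ended a call, adjusted p ranged from 0.0517 to 0.0936 for *Got1* and from 0.0502 to 0.141 for *Mdh2*, which also lost its call after repeated quantile normalization (0.0578). *Acly*, which splits the citrate exported through *Slc25a1*, had a log2 fold change of 0.30 and was not called (limma adjusted p = 0.114).

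*Ucp2*, an uncoupling protein of the same protein family under another symbol, read 8.80, 8.20 and 7.71 under normoxia and 6.70, 6.45 and 6.04 under hypoxia. The groups did not overlap, and it fell at a log2 fold change of -1.84 (standard error 0.30, limma adjusted p = 0.00365), whereas *Mtch1* (-0.13) and *Mtch2* (0.20), carrier homologs of the outer membrane, were not called. Of 10 regulators of mitochondrial biogenesis, 0 rose and 3 fell by limma with and without the block (median -0.37). This stands beside 15.5% and 23.9% of all rows without the block and 13.3% and 20.1% with it. At an unadjusted p under 0.05 the counts were 0 and 5 without the block. The 3 called genes were *Tfam*, which packages mitochondrial DNA (log2 fold change -1.17, limma adjusted p = 0.00251), *Pprc1*, a coactivator (-0.83, limma adjusted p = 0.00265), and *Tfb2m*, a mitochondrial transcription factor (-0.67, limma adjusted p = 0.00790). The *Tfam* row is among the dimmest 25% of rows, and *Tfb2m* lost its call without mouse 2 (adjusted p = 0.102).

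**Figure D5:**
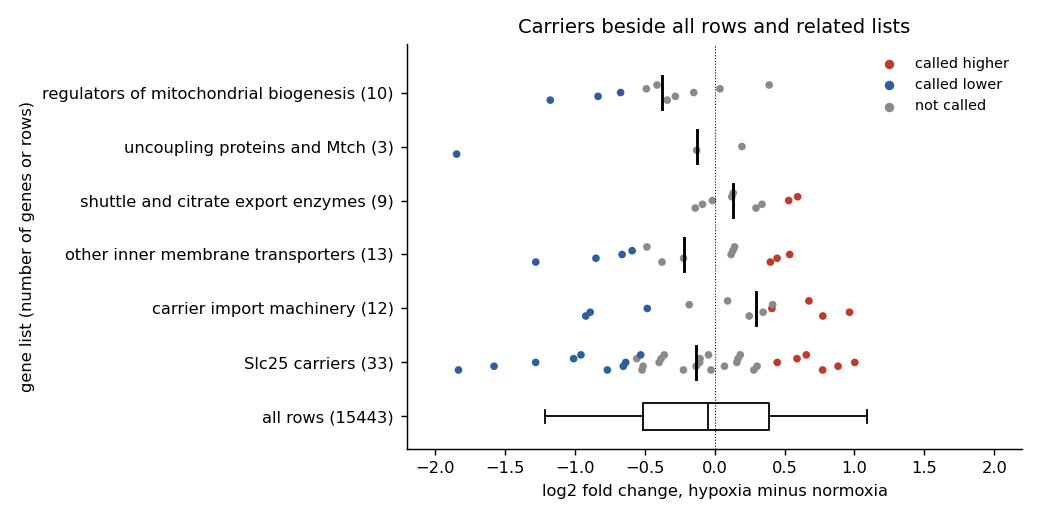
Log2 fold change (hypoxia minus normoxia, x axis) of the 33 Slc25 carriers and of 5 lists of related genes (y axis, number of genes in brackets), with a point for each gene and a bar for each median. The box of all 15443 rows spans the quartiles -0.51 and 0.39 with whiskers from the 5th to the 95th percentile, and the carrier median of -0.13 lies inside it.

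The labels and the cells were checked on the same arrays. Counts of markers stand beside 15.5% of all rows called higher and 23.9% called lower (13.3% and 20.1% with the mouse as a block). *Ndrg1*, a gene induced by hypoxia, read 8.40, 8.98 and 8.66 in the normoxic arrays and 10.71, 10.63 and 10.41 in the hypoxic arrays (log2 fold change 1.91, limma adjusted p = 0.000741). Of 5 hepatocyte markers measured, 2 rose and 1 fell with and without the block, with a mean log2 level of 11.13 to 11.34 under normoxia and 11.37 to 11.47 under hypoxia. This mean joins the rises of *Apoa1* (log2 fold change 0.72) and *Tat* (0.88) with the fall of *Hnf4a* (-1.03, limma adjusted p = 0.0016). Of 5 markers of sinusoidal endothelium, 4 rose and 0 fell by limma with and without the block (4 and 1 at an unadjusted p under 0.05 without it), and their mean level was 7.33 to 7.62 under normoxia and 8.05 to 8.11 under hypoxia. Of 5 Kupffer cell markers, 2 rose and, with the mouse as a block, 1 (7.25 to 7.35 against 7.60 to 7.89). Of 5 stellate cell markers, 1 rose in both fits (6.53 to 6.84 against 6.92 to 7.38). Of 5 biliary markers, 1 rose and 2 fell (8.25 to 8.73 against 7.91 to 8.30), and the riser was *Krt7* without the block (adjusted p = 0.0873 with it) and *Krt19* with it (adjusted p = 0.00914, against 0.0707 without it). Those that fell were *Spp1* (log2 fold change -2.81) and *Sox9* (-1.14). The table holds no detection calls, so that no marker can be given as absent, and the part of other cells in the carrier values was not tested. Array medians lay between 7.42 and 7.49, and the hypoxic arrays correlated less with one another (r across rows 0.903 to 0.938) than the normoxic arrays (0.958 to 0.963).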

How the data were processed

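RNA from hepatocytes of 3 mice under normoxia and hypoxia was labeled and hybridized to Affymetrix Mouse Gene 2.0 ST arrays, 6 in all. RMA expression on the log2 scale was deposited by the authors and had been computed with oligo, whose version is not given in the sources used here. RMA corrects the background, quantile-normalizes the arrays and summarizes probes. All arrays were kept and the deposited log2 values were not changed.

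All 15443 rows were fitted in R 4.3.3 with limma 3.58.1, using lmFit and eBayes with the condition alone, two-sided tests and p-values adjusted after Benjamini-Hochberg (threshold 0.05). No block is named in the methods. The labels give the same animal for a normoxic and a hypoxic array, so the arrays are paired by design, and fits with the mouse as a block were added as an alternative. Paired arrays deviated from their group means with correlations of -0.11 (mouse 1), 0.02 (mouse 2) and 0.10 (mouse 3). No exact permutation p is printed, since with 3 arrays in each group it cannot fall below 0.1. The limma fits were tested on simulated data with known changes and no mouse effect, which cannot show how pairing acts in these arrays.

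Gene symbols came from the platform annotation. Symbols of related genes were updated through RefSeq (GRCm38.p6). Members, gene lists and the naming rule were chosen with earlier results of these data known. By that rule every carrier may be named, with values in every array for called carriers and their relatives of the same substrate group. Up to 3 genes with the smallest adjusted p may be named in each related list, with further members as exceptions.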

Additional observations from a re-analysis of the deposited data

How the results depend on the processing

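With the mouse as a block, 4 carriers were called higher and 7 lower in place of 6 and 9, and the median log2 fold change stayed at -0.13. The block changed no other call than the 4 given above. Across 9 fits that left out 1 array or 1 mouse, the count called higher ranged from 0 to 6, the count called lower from 3 to 12 and the median from -0.36 to -0.10. The number of all rows called differed between these fits as well. The 12 came without the hypoxic array of mouse 1, where 3114 of all rows were called higher and 4131 lower. Over all rows, 2400 rose and 3698 fell, against 2047 and 3099 with the block, 852 and 1306 without mouse 2 and 1193 and 1726 without mouse 3, and those fits without a mouse rest on fewer arrays.

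None of the 15 called carriers turned direction, which their separate groups fixed in advance for the fits without an array or a mouse. Of the uncalled carriers 8 turned, and the cause was not tested. These 8 had overlapping groups and log2 fold changes from -0.56 (*Slc25a18*) to 0.18 (*Slc25a47*). Repeated quantile normalization gave log2 fold changes of 0.0114 for *Slc25a11* and 0.0233 for *Slc25a14*, and centring on the brighter rows gave 0.0352 for *Slc25a11* and 0.0176 for *Slc25a46*. Without an array or a mouse, log2 fold changes ranged from -0.0660 to 0.00829 for *Slc25a11*, -0.29 to 0.21 for *Slc25a14*, -1.06 to 0.18 for *Slc25a18*, -0.36 to 0.44 for *Slc25a27*, -0.0446 to 0.30 for *Slc25a39*, -0.30 to 0.10 for *Slc25a40*, -0.16 to 0.0623 for *Slc25a46* and -0.24 to 0.53 for *Slc25a47*. With 7 carriers in the dimmest 25% of rows left out, 6 of 26 rose and 8 fell, beside 2145 and 3109 of 11582 rows.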
